A study of Mus musculus with 96 samples.

Results

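Transcripts of 6 genes of zinc handling were followed in single C10 cells. C10 is a line from mouse lung, labelled as alveolar type II epithelium. The 6 genes are the metallothioneins Mt1 and Mt2, the transcription factor Mtf1 and the zinc transporters Slc30a1, Slc39a10 and Slc39a1. They were chosen by name among 40202 genes listed in each count file, and 5 of them averaged 5 CPM or more between the groups (CPM is a gene's counts divided by the total of the group or cell, per 1000000). Control cells were untreated. RO-3306 cells had received 10 nM of RO-3306, which blocks the mitotic kinase CDK1, for 36 h. This dose is as the labels give it, is below those commonly used for the compound, and could not be checked here. RNA was read by SMART-seq, which copies transcripts over their whole length. Each group had 48 libraries of 1 cell each. Both groups were grown in RPMI with serum and dispensed singly, and by the series title the lysate of each cell was divided so that its protein could also be measured. Protein was not analysed here. The comparison asks how these transcripts differed between treated and untreated cells. The labels name no separate cultures, so each treatment counts as 1 sample, no test between groups was possible, and all 95% intervals cover counting error only.

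Zinc that enters a cell is bound by metallothioneins, small proteins rich in cysteine that buffer zinc and copper and hold cadmium. MTF1 is a zinc finger factor that senses free zinc. It binds metal response elements in the promoters of the metallothionein genes and of Slc30a1, which codes for the exporter ZnT1 of the plasma membrane. Proteins of the Slc39a (ZIP) family move zinc the other way, into the cytosol. Slc39a10 codes for ZIP10 and Slc39a1 for ZIP1, both found at the cell surface, and MTF1 is known to repress Slc39a10. Metallothionein genes also respond to oxidants and glucocorticoids.

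The 250 bases before the RefSeq start of transcription are shown for the 3 members that held the core of the metal response element, because MTF1 acts through it. Capitals mark each match to TGCACNC or TGCGCNC on either strand, where N is any base. The windows are those of RefSeq on GRCm38.p6, an older build than the GRCm39 of the count files. All are on the plus strand, at chr8:94178839-94179088 for Mt1, chr8:94172368-94172617 for Mt2 and chr1:191906531-191906780 for Slc30a1.
Mt1: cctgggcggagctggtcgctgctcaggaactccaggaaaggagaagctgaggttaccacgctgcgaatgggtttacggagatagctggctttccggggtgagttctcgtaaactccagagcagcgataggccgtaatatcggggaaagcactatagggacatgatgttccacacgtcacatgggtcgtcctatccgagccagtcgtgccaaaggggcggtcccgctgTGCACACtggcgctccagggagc
Mt2: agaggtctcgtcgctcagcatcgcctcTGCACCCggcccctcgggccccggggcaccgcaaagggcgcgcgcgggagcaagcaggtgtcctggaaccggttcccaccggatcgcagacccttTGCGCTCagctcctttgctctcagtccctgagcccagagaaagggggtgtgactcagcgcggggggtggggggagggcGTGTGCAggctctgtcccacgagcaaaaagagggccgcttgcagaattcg
Slc30a1: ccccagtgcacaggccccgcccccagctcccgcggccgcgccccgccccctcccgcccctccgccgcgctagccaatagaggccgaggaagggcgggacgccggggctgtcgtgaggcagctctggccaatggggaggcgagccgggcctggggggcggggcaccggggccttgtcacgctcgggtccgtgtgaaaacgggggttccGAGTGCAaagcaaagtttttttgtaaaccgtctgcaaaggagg
Mt2 held 3 matches, Mt1 held 1 and Slc30a1 held 1. The windows of Mtf1, Slc39a1 and both starts of Slc39a10 held 0. Of 32851 RefSeq windows of this length, 21.4% held at least 1 match and 1.26% held at least 3. A match is a run of letters and not a site shown to be bound. In the first 50 transcribed bases, not printed, Mt1 held 2 more matches, and Mt2 and Slc30a1 held 1 more each. Starts differ between annotations. The principal Mt2 transcript of GENCODE M21 begins 46 bases after the RefSeq start. The principal Mt1 transcript of GENCODE M21 begins at 94179082, near the RefSeq start, while 2 other Mt1 transcripts begin at 94179211 and 94179241, downstream of the window.

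A minimum of 50000 counts and 1000 detected genes left 29 control and 37 RO-3306 cells. Their totals ranged from 59979 to 6457215 counts in control and from 295005 to 5321880 in RO-3306, with medians of 1753427 and 2234309. The meaning of the letter in each title, A to D, is not given. Letters A, B, C and D held 10, 8, 6 and 5 kept control cells and 10, 10, 11 and 6 kept RO-3306 cells. To compare cells at equal depth, each was thinned to 639000 reads, which 25 control and 34 RO-3306 cells allowed. Of 10 markers of alveolar type II cells, 5 had no count in any kept cell (Sftpa1, Sftpc, Sftpd, Slc34a2 and Napsa). Abca3 was at 9.38 and 5.21 CPM and Lpcat1 at 13.5 and 18.7 CPM in control and RO-3306, and Sftpb, Lamp3 and Etv5 were below the 5 CPM minimum. Mesenchymal genes such as Vim and Fn1 were together at 5579 CPM in control, against 2523 CPM after RO-3306.

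Metallothionein transcripts were found in every kept cell, and their summed level was nearly equal in the groups. Mt1 plus Mt2 came to 1232 CPM in control (1223 to 1240) and 1254 CPM in RO-3306 (1246 to 1261), a ratio of 1.02 (1.01 to 1.03). Mt1 (chromosome 8, 94905214 to 94906955 on GRCm39) had 821 CPM in control (814 to 828) and 892 CPM in RO-3306 (886 to 898). Mt2 (chromosome 8, 94899246 to 94900195) lies upstream of Mt1, with 5018 bases between the 2 spans. It had 411 CPM in control (406 to 415) and 362 CPM in RO-3306 (358 to 366). On the log2 scale, with 1 CPM added, the ratio of RO-3306 over control was 0.12 for Mt1 and -0.18 for Mt2. Scaling by edgeR TMM or DESeq2 size factors moved the median of all genes by 0.21 and 0.23 and brought Mt2 to 0.03 and 0.05. Mt2 stayed below 0 without letter A, at -0.47, and was above 0 without letter B, at 0.23. With equal weights on the log scale it was 0.40, where the median of all genes was 0.41. Mt1 also moved, to -0.14 without letter A and 0.66 without letter B. A count in every kept cell was seen in 2.9% of the 9374 genes of at least 5 CPM. By level, Mt1 ranked 154 and Mt2 ranked 494 among all genes. The other metallothionein genes of the mouse, Mt3 and Mt4, are neighbours on chromosome 8 and had no count in any kept cell, which allows a detected count in up to 10.3% of control and 8.11% of RO-3306 cells.

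Single cells differed more within the control group than between the groups. Per control cell, Mt1 had a lowest value of 33.3 CPM, a median of 484 CPM and a highest of 3514 CPM. Per RO-3306 cell these values were 244, 805 and 1720 CPM. All 37 RO-3306 cells lay inside the control range. Of these, 29 lay above the control median. At the ends, 7 control cells lay below every RO-3306 cell and 2 above. The lowest control cell, D10, had 2 Mt1 counts among 59979, so its value is imprecise. For Mt2, control cells ran from 0.519 through a median of 306 to 801 CPM, and RO-3306 cells from 44.1 through 320 to 1182 CPM. The Mt2 medians were close, and 36 of 37 RO-3306 cells lay inside the control range. Control cell A11 had 1 Mt2 count beside 270.5 Mt1 counts.

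**Figure D1:**
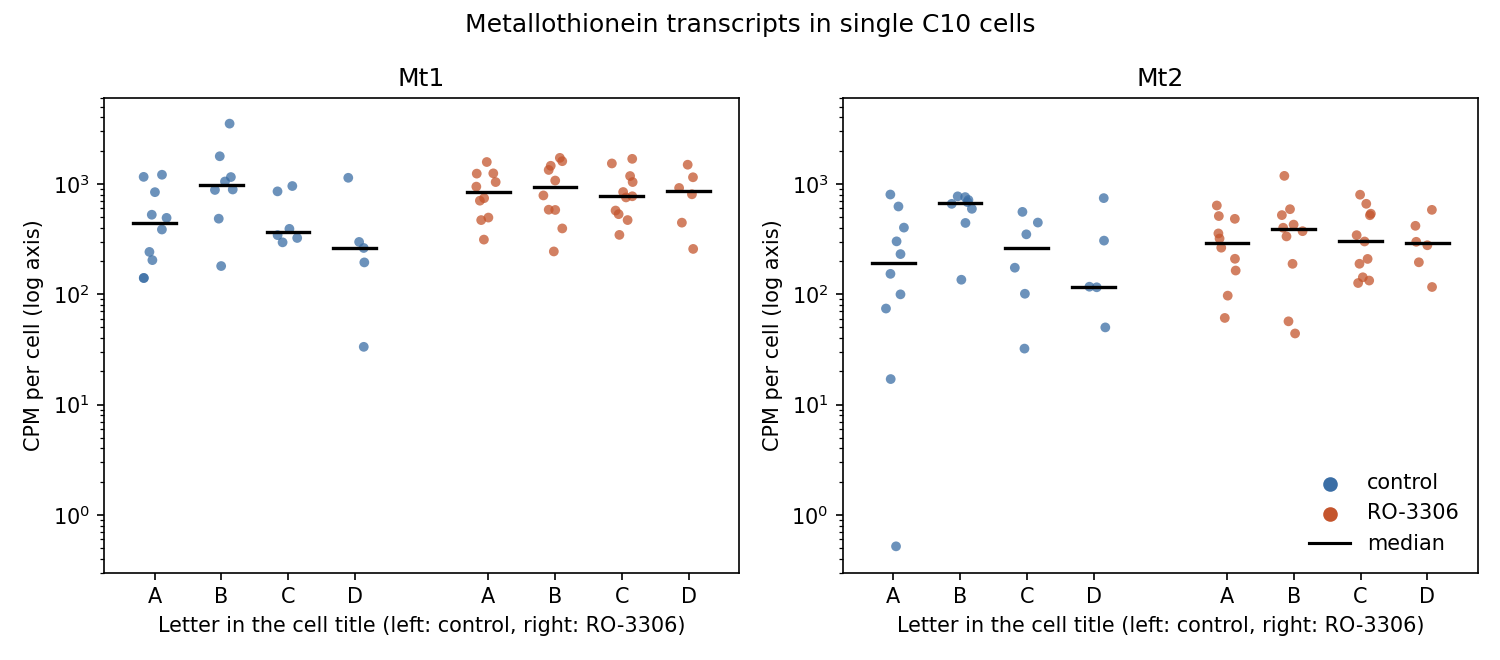
Level of Mt1 (left) and Mt2 (right) in each kept cell, in CPM on a log axis, by title letter. Points are cells, black bars are medians, and the control medians of letter B are above those of A, C and D.

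At equal depth the coefficient of variation of Mt1 was 0.962 over 25 control cells and 0.449 over 34 RO-3306 cells. That of Mt2 was 0.754 and 0.605. Most genes varied more among control cells: of 2900 genes of at least 50 CPM found in at least 50% of thinned cells of each group, 81.7% did so, with medians of 1.07 and 0.779. The control-to-RO-3306 ratio of the coefficients was 2.14 for Mt1, above that of 95.8% of these genes, and 1.25 for Mt2, above that of 44.1%. The Mt1 value rests on 1 cell. Without control B8, the highest in Mt1, its coefficient in control was 0.685 and its ratio 1.53, above that of 72.1% of genes.

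Sums differed between title letters, on top of the spread inside each letter, where control cells ran from 141 to 2010 CPM in A and from 83.4 to 1878 CPM in D. In control, Mt1 plus Mt2 summed to 811 CPM in letter A, 1903 CPM in B, 700 CPM in C and 877 CPM in D. In RO-3306 the same letters had 1264, 1556, 1037 and 1235 CPM. The sum was therefore higher in RO-3306 in A, C and D, with log2 ratios of 0.64, 0.57 and 0.49, and lower in B, at -0.29. Letter B alone holds 8 of the 29 control cells, and without it the pooled log2 ratio was 0.53. Without letter A it was -0.25. The nearly equal sums thus combine letters that differed in opposite directions. Giving each cell the same weight brought the log2 ratio to 0.24 for means of CPM and to 0.57 for means of log2(CPM + 1). On the log scale the median of all genes itself moved by 0.63, to 0.41.

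Letter B was the highest letter in both groups for 3 members, Mt1, Mt2 and Slc30a1. Mt1 had 1267 CPM in control cells of B, against 489 to 554 CPM in the other letters, and 1044 CPM in RO-3306 cells of B, against 761 to 908 CPM. Mt2 had 635 CPM in control cells of B, against 211 to 358 CPM, and 513 CPM in RO-3306 cells of B, against 276 to 356 CPM. Among the 9374 genes, 6.0% were highest in letter B in both groups.

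Within a cell, the balance of the 2 metallothionein genes does not depend on scaling. Mt1 reads made up 66.7% of Mt1 plus Mt2 reads in control (66.3% to 67.0%) and 71.1% in RO-3306 (70.9% to 71.4%). Per cell, the share ran from 38.6% through a median of 65.0% to 99.6% in control and from 53.3% through 74.1% to 96.3% in RO-3306. Mt1 had more reads than Mt2 in 25 of 29 control cells and in all 37 RO-3306 cells. By letter, the share in control and in RO-3306 differed by unequal amounts. It was 68.4% and 71.9% in A, 69.9% and 73.4% in C, and 59.2% and 73.2% in D. In letter B it was 66.6% (66.2% to 67.0%) and 67.1% (66.6% to 67.5%), and these intervals overlap. Per kilobase of mRNA, with the GENCODE M21 lengths of 549 and 511 nt, Mt1 had 1496 and Mt2 had 803 CPM in control, and 1624 and 708 CPM in RO-3306. Some Mt1 and Mt2 reads were placed at several sites, since 35.4% and 31.1% of the libraries with a count held a fractional one.

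**Figure D2:**
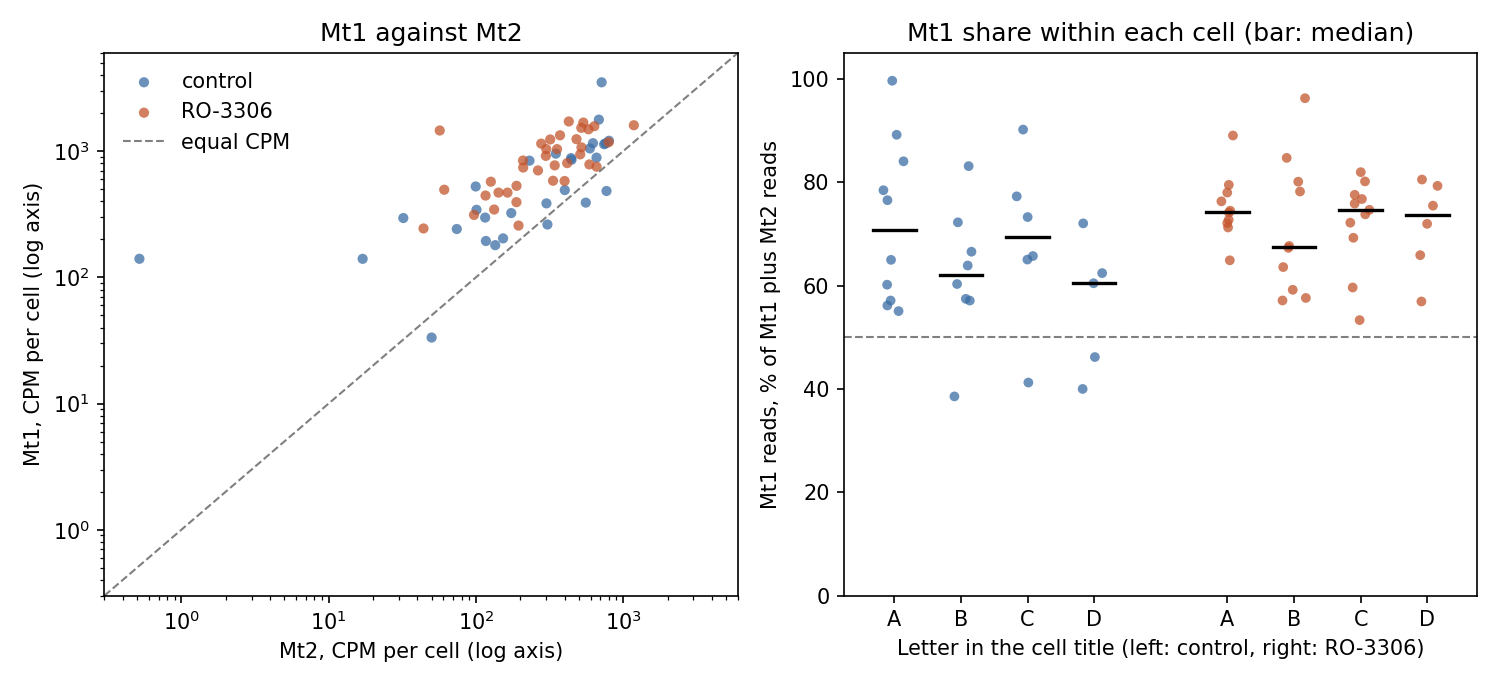
Left, Mt1 against Mt2 in each kept cell, in CPM on log axes, with a dashed line of equal CPM. Right, Mt1 reads as a percent of Mt1 plus Mt2 reads in each cell by title letter, with black bars at the medians and a dashed line at 50%. All RO-3306 cells and 25 of 29 control cells lie on the Mt1 side.

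Mtf1 (chromosome 4, 124696342 to 124743593) was scarce, as the transcript of the zinc sensor. It had 14.2 CPM in control (13.3 to 15.1) and 19.7 CPM in RO-3306 (18.9 to 20.7), a log2 ratio of 0.45. Per cell it ran from 0 through a median of 0.477 to 153 CPM in control and from 0 through 7.85 to 87.8 CPM in RO-3306. A count was present in 18 of 29 control and 27 of 37 RO-3306 cells, and at equal depth in 52% (31.3% to 72.2%) and 70.6% (52.5% to 84.9%), intervals that overlap. The letters differed. Control cells had 24.5 CPM in A and 11.6 CPM in B but 0.998 CPM in C and 2.84 CPM in D. RO-3306 cells had 24.1, 24.5, 12.1 and 22.1 CPM in A to D. Control sums were thus low in C and D, and RO-3306 sums were not. One control cell, A1, held 33.5% of the control counts, and without it the log2 ratio was 0.92. With cells weighted equally it was 0.03 for means of CPM. It was 0.996 on the log scale, where the median of all genes was 0.41. Without letter A the log2 ratio of Mtf1 was 1.14. Of the Mtf1 span, 7.92% is shared with other genes, and reads there are not counted.

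Slc30a1 (chromosome 1, 191638810 to 191645359), the exporter and a textbook MTF1 target, was found in few cells. It had 51.4 CPM in control (49.7 to 53.1) and 22.6 CPM in RO-3306 (21.6 to 23.6), a log2 ratio of -1.15. Among all genes of at least 5 CPM, 24.2% were lower by 2-fold or more in RO-3306 and 12.2% were higher, so a difference of this size was common. A count was present in 7 of 29 control and 18 of 37 RO-3306 cells, and at equal depth in 28% (12.1% to 49.4%) and 32.4% (17.4% to 50.5%). Both medians were 0, and the highest cells reached 383 and 180 CPM. Of the control counts, 93.5% lay in 3 cells and 57.6% in B5 alone. Without B5 the log2 ratio was -0.06, and with cells weighted equally it was 0.09. Letter B set the level in both groups, with 125 CPM in control cells against 62.4 CPM in treated ones. In A there were 6.62 and 17 CPM. In C and D control had no count, against 0.719 and 16.5 CPM in RO-3306. With letter B left out of both groups the log2 ratio was 1.08, and with B left out of control alone it was 2.22. No direction is therefore given for Slc30a1. Another gene covers 12.7% of its span.

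Slc39a10 (chromosome 1, 46846704 to 46964952, minus strand), an importer, had 99.2 CPM in control (96.8 to 102) and 41.4 CPM in RO-3306 (40.1 to 42.7). The log2 ratio was -1.24. Per cell it ran from 0 through a median of 3.47 to 445 CPM in control and from 0 through 3.99 to 358 CPM in RO-3306, so the medians were close. A count was present in 15 of 29 and 22 of 37 cells, and at equal depth in 60% (38.7% to 78.9%) and 52.9% (35.1% to 70.2%). In letter B all 8 control cells had a count, from 19 through a median of 155 to 445 CPM, against 3 of 10 RO-3306 cells. In letter C none of 6 control cells had one, against 6 of 11 RO-3306 cells. The sums were 99.9 and 52.2 CPM in A, 155 and 38 CPM in B, 0 and 31.3 CPM in C, and 11.2 and 50.4 CPM in D. Control cells were thus higher in A and B and lower in C and D. The pooled log2 ratio was below 0 under all 19 alternatives, from -1.49 to -0.26, although the letters did not share that sign.

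**Figure D3:**
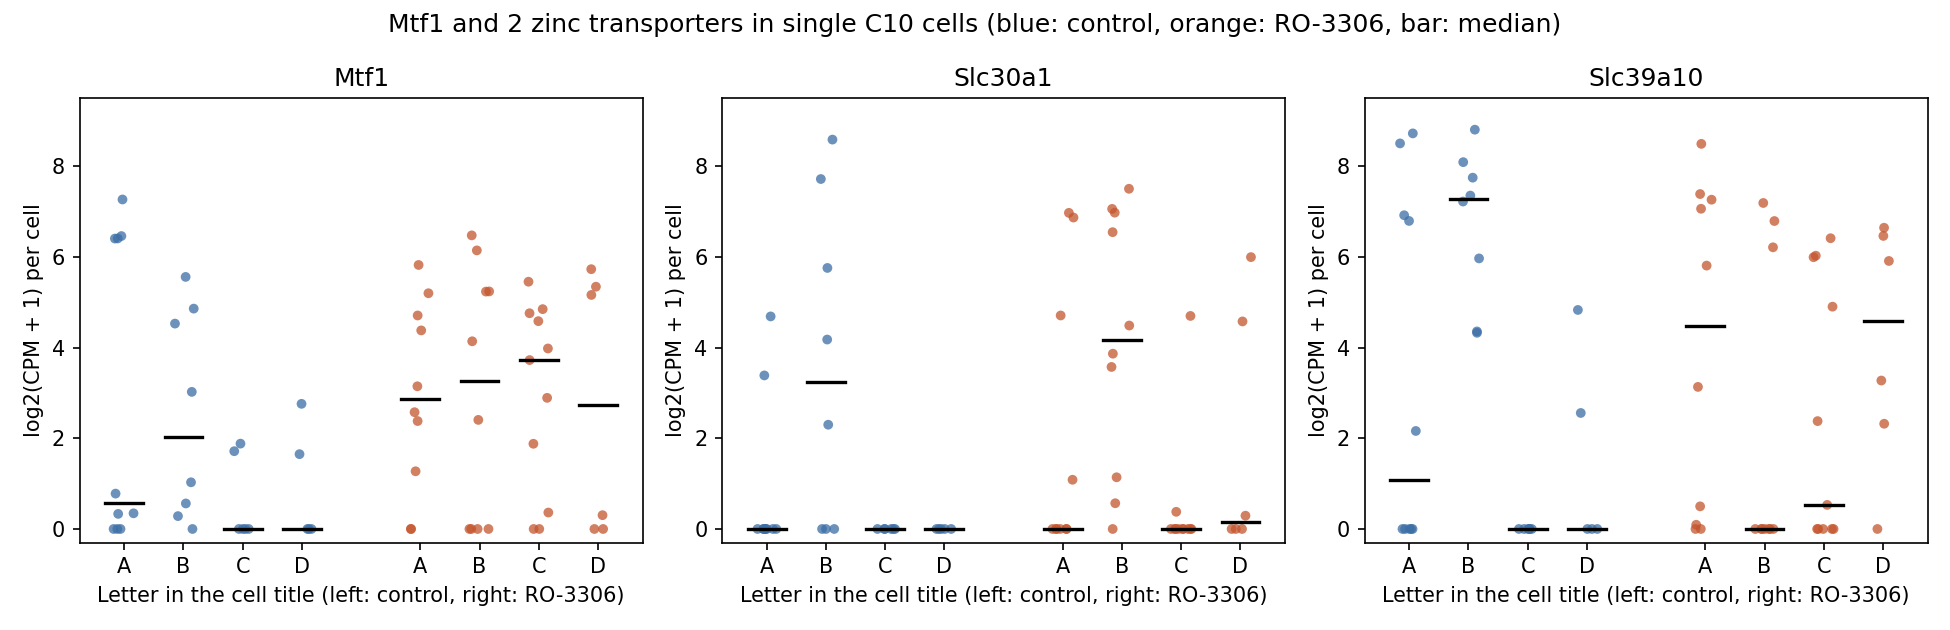
Mtf1, Slc30a1 and Slc39a10 in each kept cell, as log2(CPM + 1), by title letter, with control cells in blue and RO-3306 cells in orange. Black bars are medians of the plotted values. Slc30a1 counts gather in letter B of both groups, and Slc39a10 is found in all 8 control cells of B and in none of the 6 of C.

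Slc39a1 (chromosome 3, 90155497 to 90160922), the remaining importer, had 0 counts in all 96 libraries. Its span lies wholly (100%) inside that of Creb3l4, a gene on the opposite strand, and the counting left out reads that overlap 2 gene spans. The 0 therefore says nothing about its transcript. Of the 5 members that could be counted, 0 were higher by 2-fold or more in the sums, against 12.2% of all genes. By the same rule 2 were lower, Slc30a1 and Slc39a10, against 24.2% of all genes. As stated above, no direction is given for Slc30a1. With the further requirement of the same sign in all 4 letters, 0 members were past 2-fold in either direction. Of all genes, 7.23% were higher and 6.43% lower by that stricter rule.

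Over both families, counting Slc30a1 and Slc39a10, the zinc transporters gave no shared direction. Of 14 with at least 5 CPM, 6 were higher and 8 lower. Of 10 exporters of the Slc30a family, 6 had at least 5 CPM, with a median log2 ratio of -0.58 against -0.22 over all genes. All 6 were lower in the sums, as were 59% of all genes, from -1.15 for Slc30a1 to -0.03 for Slc30a9. The count includes Slc30a1, for which no direction is given. It also includes Slc30a9, with an interval of -0.07 to 0.01, which was higher in 2 letters and lower in 2. Slc30a6, which moves zinc into the secretory pathway, was the one exporter with the same sign in all letters, at 60.2 CPM (58.4 to 62.1) and 40.3 CPM (39 to 41.6). In A its log2 ratio was -0.01, smaller than the shift between scalings. Of 14 genes of the Slc39a family, 8 had at least 5 CPM, with a median of 0.38. Of these, 6 were higher, against 41% of all genes, and 2 lower, and 1 passed 2-fold in each direction, Slc39a3 and Slc39a10. Slc39a3 went from 8.19 to 20.2 CPM (log2 ratio 1.20) with signs that differed between letters.

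Slc39a7 and Slc39a11 kept their sign in all 4 letters. Slc39a7, ZIP7 of the endoplasmic reticulum and Golgi, had 194 CPM in control (190 to 197) and 104 CPM in RO-3306 (102 to 106). Its log2 ratio was -0.89, with -0.41, -0.66, -1.16 and -1.35 in A to D, and 25 of 29 and 34 of 37 cells had a count. Slc39a11 had 18.7 CPM (17.7 to 19.8) and 26.9 CPM (25.8 to 27.9), a log2 ratio of 0.50, and other genes overlap its span. Slc39a4, an importer best known from the gut, missed the 5 CPM minimum. It had 0 counts in 29 control cells and 6.49 CPM in RO-3306 (5.98 to 7.02), from 7 of 37 cells. With the signs of all letters required, 23.4% of all genes qualified, against 3 of 14 zinc transporters.

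**Figure D4:**
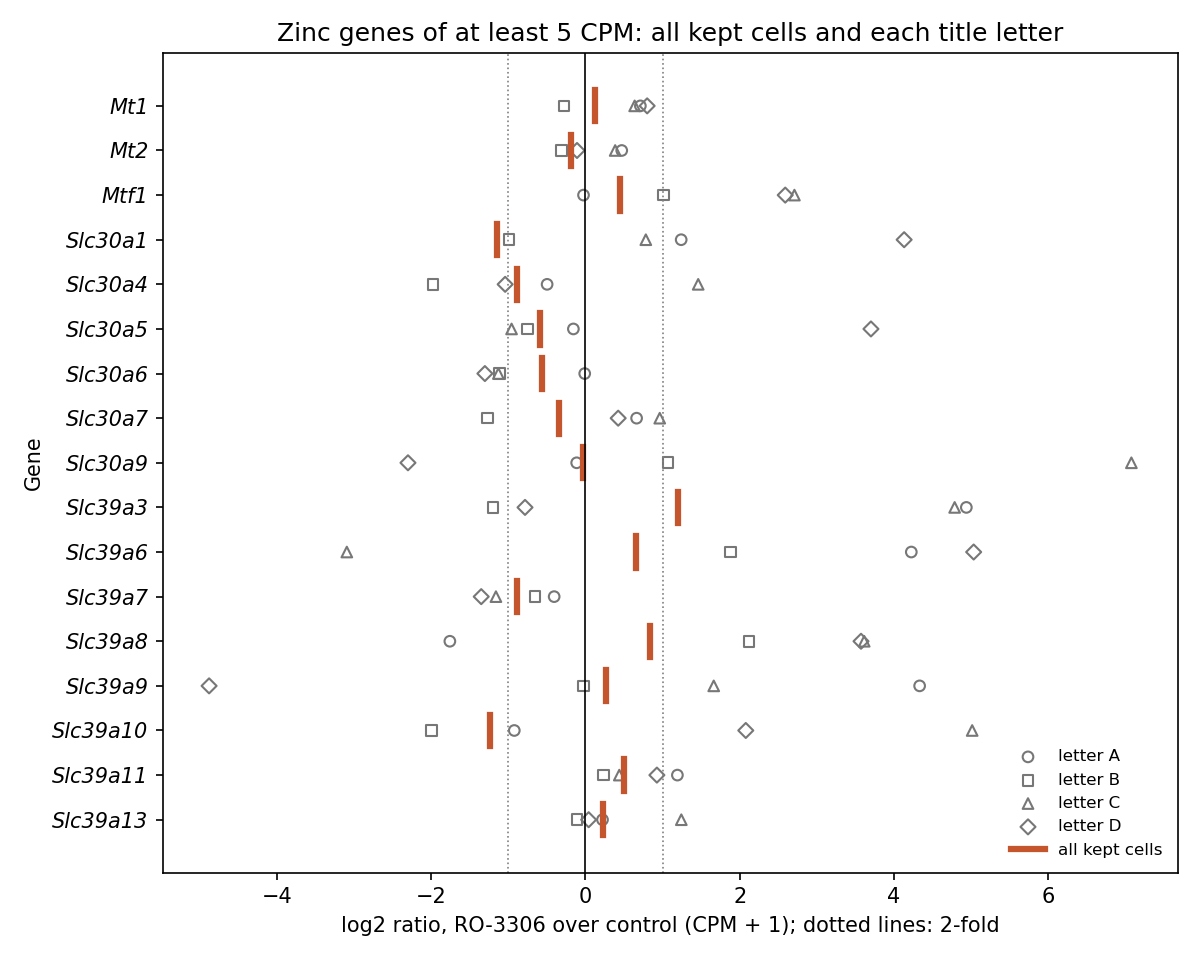
Log2 ratio of RO-3306 over control, from CPM with 1 CPM added, for Mt1, Mt2, Mtf1 and the 14 zinc transporters of at least 5 CPM. Orange bars are all kept cells, open symbols are single title letters, and dotted lines mark 2-fold. Where a letter has no count in one group, the added 1 CPM sets the value. Letters scatter on both sides of 0 for most of these genes.

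Genes of copper handling, which share metallothionein as a metal store, were counted by a list of 13. Of these, 10 had at least 5 CPM, with a median log2 ratio of 0.61. By 2-fold, 3 were higher and 2 lower, against 12.2% and 24.2% of all genes. With the same sign in all letters required, 2 were higher and 0 lower, against 7.23% and 6.43%. The higher ones were Sod1, Ccs and Slc31a2. Slc31a2, at 1.45, was higher in 3 letters and lower in C, and control cell C7 held 49.4% of its control counts. The lower ones were Sco1 (-1.12) and Cox11 (-1.32), both needed to assemble cytochrome oxidase, and their letters differed in sign. Sod1, the copper and zinc superoxide dismutase, went from 39 to 230 CPM (2.53), and Ccs, its copper chaperone, from 57.2 to 117 CPM (1.02). Both were higher in all 4 letters, although 30.8% of the Sod1 span overlaps Scaf4. Atox1 and Cox17, chaperones that carry copper to the secretory pathway and to mitochondria, had log2 ratios of 0.71 and 0.95 and were also higher in every letter. Slc31a1, the copper importer, was at 138 and 122 CPM.

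Other genes that respond to inducers shared with metallothionein were counted from lists. These lists were chosen with earlier results of these data known, and the inducers themselves were not tested. Of 10 genes inducible by metals or oxidants, 8 had at least 5 CPM. All 8 were higher in the RO-3306 sums, against 41% of all genes, and 4 passed 2-fold, against 12.2%, with a median of 1.01. Of the 8, 3 had the same sign in all 4 letters, against 23.4% of all genes. Past 2-fold and higher in all letters were 2, against 7.23%. Slc7a11 and Osgin1 were higher in 2 letters and lower in 2. Hspa1b, below the 5 CPM minimum, was at 3.27 and 1.77 CPM. Hmox1, heme oxygenase, went from 22.4 to 125 CPM with counts in 11 of 29 and 34 of 37 cells. Of 7 genes inducible by glucocorticoids, 4 had at least 5 CPM. Of these 0 were higher and 3 were lower by 2-fold, against 24.2% of all genes, with a median of -1.42. Errfi1, below that minimum, was at 3.57 and 4.54 CPM. Sgk1, a kinase, went from 127 to 45.8 CPM and was lower in every letter. It was the only 1 of these 4 genes with the same sign in all letters. Tsc22d3, at -0.25 in the sums, was higher in 3 letters and lower in 1. Mt1 and Mt2, at 0.12 and -0.18, lay between the medians of these lists, although Slc7a11 of the first list, at 0.10, was below Mt1.

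Across cells of 1 group, Mt1 and Mt2 levels went together. On log2(CPM + 1) of thinned counts, Pearson's r was 0.70 over 25 control cells and 0.57 over 34 RO-3306 cells, with Spearman's rho of 0.81 and 0.63. Without the 2 cells farthest from the median in Mt1, r was 0.67 and 0.55. These cells share a library depth by construction, and the values are a description. The metallothionein sum and Slc30a1 had rho of 0.54 and 0.32, the sum and Slc39a10 0.50 and 0.25, and the sum and Mtf1 0.11 and 0.22. All these correlations pool the title letters, and Mt1, Mt2 and Slc30a1 were highest in letter B. Of the 7 kept control cells with Slc30a1, 5 were in B. Slc39a10 was in all 8 kept control cells of B and in 0 of 6 of C. Correlations inside single letters were not computed, so how far differences between letters carry these values was not tested. For the metallothionein sum and the number of genes with a count, rho was 0.17 and -0.04. Slc30a1 itself followed that number in control cells (0.56) and not in RO-3306 cells (-0.06).

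Among the 2900 genes compared, those most like the metallothionein sum in both groups were Mrps12, Atp6v0c, Gm14322, Uchl3 and Tpx2. Mrps12, a mitochondrial ribosomal protein, had rho of 0.46 in control and 0.51 in RO-3306 cells. Atp6v0c, a subunit of the vacuolar proton pump, had 0.50 and 0.42. The smaller of the 2 values was 0.38 for Gm14322, 0.37 for Uchl3 and 0.37 for Tpx2. Over all genes compared its median was -0.11 and its 95th percentile 0.165. The named genes are the top of a ranking of 2900, and how high such a top would reach without any link was not tested. For Mtf1 the most alike were Fbxo5, Rnf19b and Sdhd, at 0.46, 0.41 and 0.41. For Slc39a10 they were Ddah2, Tm4sf1 and Tpi1, at 0.51, 0.49 and 0.43. In control cells each of these values was below the 0.81 of Mt1 and Mt2. In RO-3306 cells the 0.67 of Slc39a10 with Tm4sf1 was above the 0.63 of Mt1 and Mt2.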

How the data were processed

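Members and gene lists were chosen with earlier results of these data known. The authors deposited expected counts by gene for each cell, made with featureCounts 2.0.3 on the RefSeq annotation of GRCm39, per the file headers. The headers record counting over whole gene spans with introns, and equal fractions for reads placed at several sites. They give no strand option, so the defaults ignore strand and leave out reads over more than 1 span. STAR and FastQC are named in the submitters' processing notes without version. Reads carry no molecular identifiers.

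Counts were summed over kept cells, and expressed per 1000000 of the group's counts (CPM). Sums have exact Poisson intervals, ratios conditional binomial intervals and shares Clopper-Pearson intervals, at 95%, from counts rounded to whole numbers. A share of 0 has the limit of 3 cells. Log2 ratios add 1 CPM. All genes of a mean of at least 5 CPM entered the counts past 2-fold. Thinning used percentile 10 of kept totals. Named genes were the members, genes of the lists of at least 5 CPM, markers at 0, and the genes with the highest smaller-of-2 Spearman correlation; Slc39a4, Mt3, Mt4, Hspa1b, Errfi1, Sftpb, Lamp3 and Etv5 were named after their values were seen. Summed log2 ratios, ratio intervals and thinned totals were tested on simulated data, and the other steps were not. Python 3.11.15, numpy 2.4.6, pandas 2.3.3 and scipy 1.17.1 were used, and edgeR 4.0.16 and DESeq2 1.42.0 in R 4.3.3 gave scaling factors as alternatives. No 2 kept libraries were identical.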

Additional observations from a re-analysis of the deposited data

Results flagged for a closer look

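Libraries below the minimum of counts or genes also held metallothionein reads. Their level was higher in RO-3306 than in control libraries, but the left-out sets were unlike in depth. All 19 control libraries were below the minimum of counts, against 8 of the 11 RO-3306 libraries. RO-3306 D4, D5 and D10 failed only the minimum of genes, with totals of 184369, 773537 and 63235 counts. Whether the treatment set this difference in level was therefore not tested. The 11 left-out RO-3306 libraries had 377 CPM of Mt1 (342 to 414), from 438 counts in 9 libraries, against 103 CPM (71.5 to 143), from 35 counts in 4 of 19 left-out control libraries. Libraries D4, D5 and D10 held 257, 84 and 70 of the 438 counts, and without D4 the level was 185 CPM. Without D5, of which 87.3% of counts were mitochondrial, it was 910 CPM (818 to 1010), near the 892 CPM of kept cells. Mt2 had 152 CPM (130 to 175) in those RO-3306 libraries, against 14.7 CPM (4.76 to 34.2) in control. Without D5 the RO-3306 value of Mt2 was 454 CPM, without D4 89.4 CPM and without C12, which held 79.5 of the 176.5 counts, 87.0 CPM. Without D3 the control value was 6.59 CPM, from 2 counts. Of the 35 control counts of Mt1, 32 were in library C11, and without it 3 counts remained (9.47 CPM, 1.95 to 27.7). Slc39a10 had 16 counts in 1 left-out control library, D4, and 0 in the left-out RO-3306 libraries. The source of these reads was not tested.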

How the results depend on the processing

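No paired analysis was possible because the groups hold single cells of 1 sample each and no result comes from a test. The log2 ratio of Mt1 plus Mt2, 0.03 as reported, was 0.24 with TMM factors, 0.26 with DESeq2 size factors, 0.050 without mitochondrial counts, 0.24 with cells weighted equally, 0.57 with that on the log scale and 0.23 at equal depth. Leaving out a title letter gave -0.25 to 0.53. After the data were seen, it was 0.11 without control cell B8, the highest in level, and 0.19 without B4, the richest in counts. The Mt1 share was higher in RO-3306 by 4.46 percentage points, by 6.67 as a mean over cells, by 9.15 as medians, by 5.82 without B8 and 5.81 without B4, and by 3.19 to 6.13 without 1 letter. Members past 2-fold and higher numbered 0, and 0 to 1 without a letter. Those lower numbered 2, then 1 with TMM factors, DESeq2 factors or equal depth, 0 with cells weighted equally on either scale, and 0 to 2 without a letter. Genes past 2-fold numbered 1141 higher and 2272 lower. On the log scale with equal weights, where the median of all genes was 0.41, they were 2665 and 464. With a minimum of 50 CPM they were 268 and 533. With no minimum, 2339 were higher. Slc30a1 turned sign with cells weighted equally (0.091, or 0.83 on the log scale) and without letter B, the highest of a range from -1.67 to 1.08. The remaining causes were not tested. Slc30a1 is limited by the few control cells that held it. The Mt1 spread without B8, Slc30a1 without control cells of letter B and levels in left-out libraries without 1 library were also chosen after the data were seen.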
